A study of Mus musculus with 6 samples.

Results

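The Hox genes of clusters A to D were followed in telogen skin, the resting phase of the hair cycle, of mice with and without the transcription factor Sox4. Members were all array probes of genes whose symbol starts with Hox, a cluster letter and a number, which gave 41 of 37000 genes and transcripts, on 46 of 55650 non-control probes. All 39 protein-coding Hox genes of the mouse had a probe, and the other 2 members were the antisense RNAs Hoxa11os and Hoxd3os1. One RNA sample per mouse was hybridised to a 1-colour Agilent array. The wild-type group (WT) held 3 untreated male mice aged 20, 19 and 18 weeks (replicates 1, 2 and 3), and the knockout group (KO) held 3 untreated male mice aged 17, 18 and 16 weeks that carried a conditional Sox4 deletion in skin. All 6 mice were of a mixed C57Bl6/129Sv background. The sources used here give neither the Cre driver of the deletion, and hence the skin cells in which it acted, nor the body site of the sample. The comparison asks which members differ when Sox4 is lost in resting skin.

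Hox genes encode homeodomain transcription factors and lie in 4 clusters. Within a cluster the paralogue number runs from the end that is active early and anteriorly in the embryo to the end that is active late and posteriorly. Adult skin keeps part of this pattern, most clearly in dermal fibroblasts, where the set of active Hox genes marks the position in the body the skin came from. In hair follicles Hoxc13 has a further role as a regulator of hair shaft keratins. Polycomb proteins keep silent Hox genes repressed, and PBX and MEIS proteins bind DNA together with HOX proteins.

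Values are log2 of the processed signal minus the log2 of the array's 75th percentile, so 0 is the 75th percentile and negative values lie below it. Levels are compared between arrays for 1 probe at a time, since probes differ in brightness at the same amount of RNA. Of all probes, 52.1% to 66.4% per array passed the scanner software's mark for well above background, and the arrays' 75th percentiles lay between 379.8 and 605.5 units of processed signal. Sox4 read 0.41, 0.65 and 0.75 in WT, against −2.94, −2.88 and −3.05 in KO, giving a log2 fold change of −3.56 (SE 0.13, limma adjusted p = 0.00135). The arrays of the mice labelled KO thus carried less Sox4 RNA. All 8 markers of epidermis and all 7 markers of dermal fibroblasts were measured; none passed the adjusted threshold, and their median log2 fold changes were −0.20 and −0.15. WT replicate 1 shared slide 1 with KO replicate 3, WT replicates 2 and 3 shared slide 2 with KO replicate 1, and KO replicate 2 was alone on slide 3.

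Detection differed with position in the clusters, which was not tested. A probe was called detected on an array where it carried this mark, and a gene was tested where a probe was detected on all arrays of at least 1 group. By this rule 30 of 41 members were tested, 28 of them coding. All 28 were detected on all 6 arrays. Every gene of paralogue groups 4 to 8 was among them, 15 of 15, compared with 5 of 8 in groups 1 to 3 and 8 of 16 in groups 9 to 13. By cluster, 9 of 11 Hoxa, 8 of 10 Hoxb, 7 of 9 Hoxc and 4 of 9 Hoxd genes were tested.

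The 11 coding genes that were not tested lay mostly at the ends of the clusters. Hoxb1, Hoxb13, Hoxd1, Hoxd11, Hoxd12 and Hoxd13 were not well above background on any array. Hoxd11 to Hoxd13 are the genes of the distal limb and genital tubercle, and Hoxb13 is a gene of prostate and tail skin. Hoxa11, Hoxa13, Hoxc11, Hoxc12 and Hoxd3 were detected on 1 to 3 arrays. Hoxd3 was detected in WT replicate 3 and in KO replicates 1 and 3. For these 11 genes no difference between groups was tested.

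**Figure D1:**
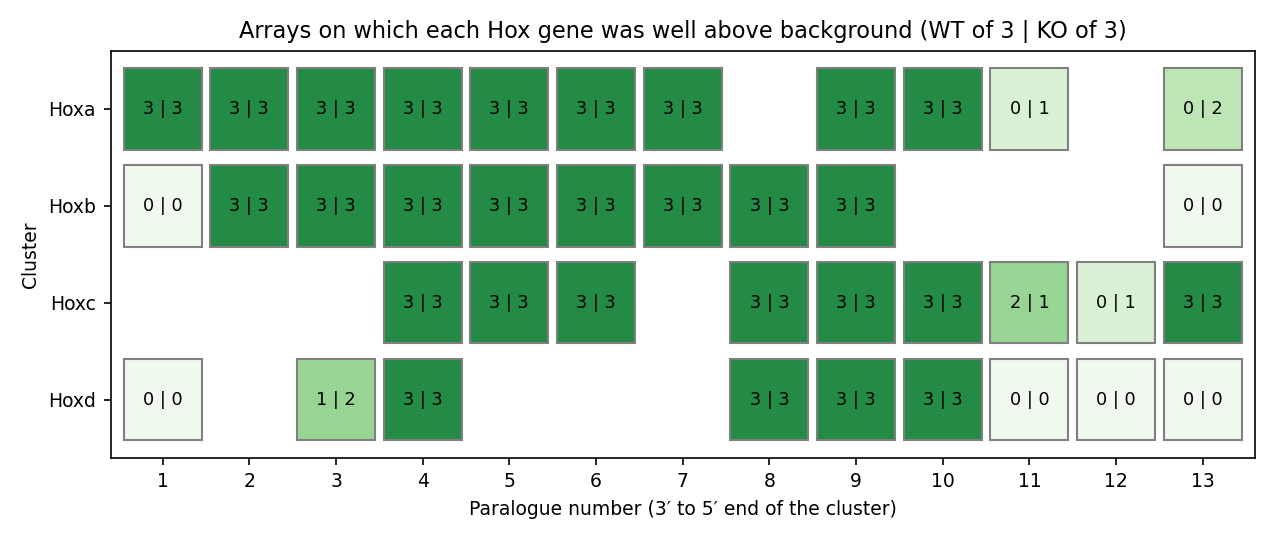
Grid of the 39 Hox genes by cluster and paralogue number, with the number of WT arrays (left, of 3) and KO arrays (right, of 3) on which the best detected probe was well above background, and darker green for more arrays. All 15 genes of groups 4 to 8 are at 3 and 3, and the incompletely detected genes are Hoxb1, Hoxd1, Hoxd3 and members of groups 11 to 13.

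No Hox member passed the adjusted threshold of 0.05. Adjusted p ran from 0.30 to 0.99 over the 30 tested members (limma, Benjamini-Hochberg over 22823 genes and transcripts). Over all genes and transcripts 5 were called, 0.0219%, a share at which a set of 30 would hold no call. At an unadjusted p under 0.05, 7 of 30 members were higher in KO, 23.3%, beside 6.26% of all genes tested, and 1 was lower, 3.33%, beside 5.5%. KO values lay above all WT values for 6 members, 20%, beside 7.56% of all genes, and below all WT values for 1 member, 3.33%, beside 11.8%. The 6 were Hoxc4, Hoxc5, Hoxc6, Hoxd3os1, Hoxd8 and Hoxd9, and the 1 was Hoxb9. Hoxa11os passed the filter through the KO arrays alone, as described below, so the filter favours its difference.

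Median differences were positive for the Hoxc and Hoxd genes and near or below 0 for the other clusters. The median log2 fold change of the 30 members was 0.13, with 20 positive, whereas the median of all genes was −0.09, with 35.9% positive. Among coding genes, the 7 tested Hoxc genes had a median of 0.40 (6 positive) and the 4 tested Hoxd genes 0.43 (4 positive). The 9 Hoxa genes had a median of 0.06 (6 positive), and the 8 Hoxb genes −0.20 (2 positive). By paralogue group the medians were −0.17 for groups 1 to 3, 0.20 for 4 to 8 and 0.09 for 9 to 13. The medians of the Hoxc and Hoxd genes stayed positive on each slide and with slide, age or the muscle score (described below) in the fit. These sets hold Hoxc4, Hoxc5, Hoxc6, Hoxd8 and Hoxd9, whose lack of overlap between groups fixes their sign on each slide. The medians of the 2 clusters on each slide are therefore no independent check. The Hoxb median turned to 0.06 on slide 1 and 0.03 with the muscle score. The Hoxa median turned to −0.15 on slide 2 and to −0.03 in the slide-blocked fit. That of groups 1 to 3 turned to 0.24 on slide 1 and 0.19 with the muscle score. That of groups 9 to 13 turned to −0.14 on slide 2 and to −0.07 in the slide-blocked fit. These are descriptions of small sets of neighbouring genes, and no difference between clusters was tested.

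**Figure D2:**
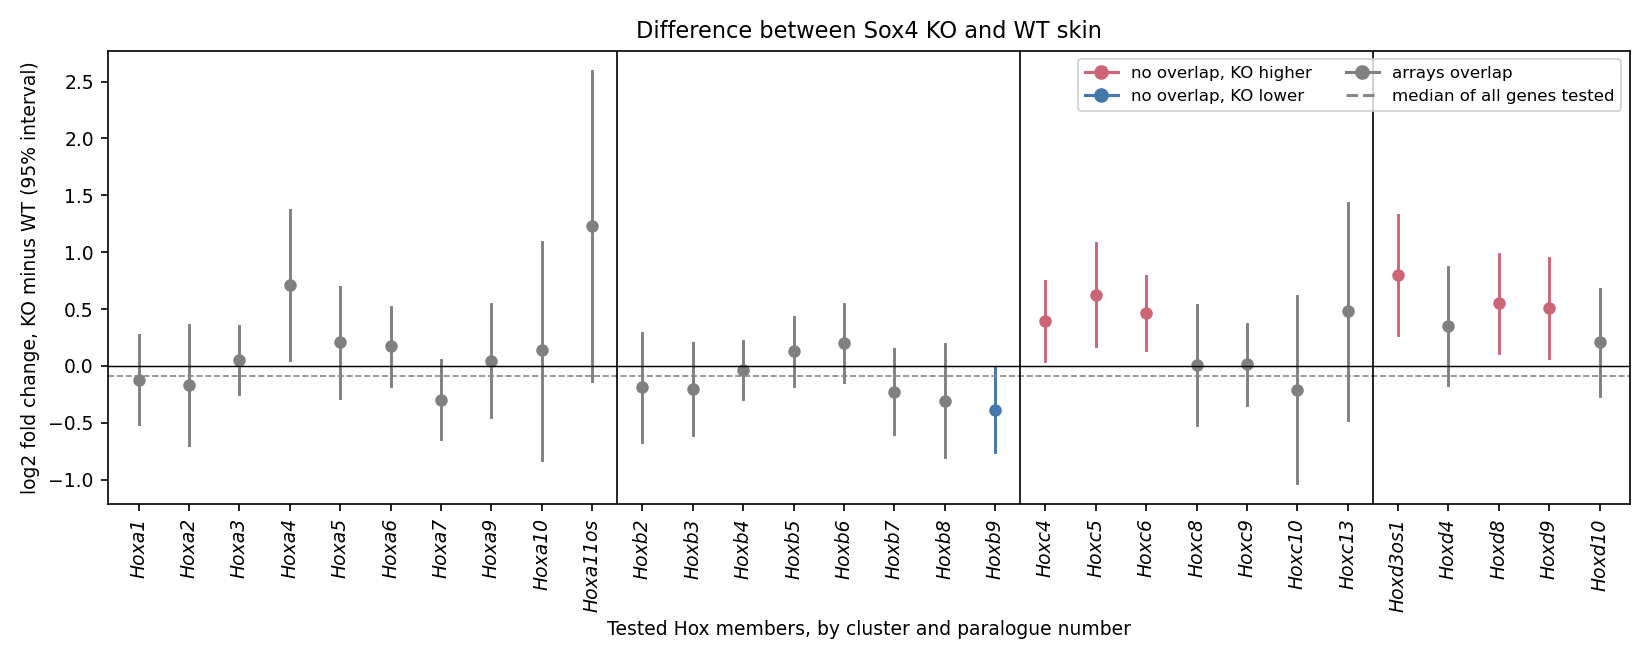
Log2 fold change (KO minus WT) of the 30 tested members with its 95% confidence interval from limma, in order of cluster and paralogue number; the dashed line is the median of all genes tested, −0.09. The 6 members with KO above every WT array lie in clusters C and D, and Hoxb9 is the 1 member with KO below every WT array.

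The neighbours at the low-numbered end of the Hoxc cluster, Hoxc4, Hoxc5 and Hoxc6, had higher values on every KO array than on any WT array. Their products pattern the neck and upper trunk of the embryo. Hoxc6 read 2.58, 2.41 and 2.34 in WT replicates 1, 2 and 3 and 2.72, 3.02 and 2.98 in KO. Its log2 fold change was 0.46 (SE 0.14, limma adjusted p = 0.31), or 1.38-fold. The gap between the highest WT array and the lowest KO array, both replicate 1, was smaller than the range within either group. Hoxc5 read −0.93, −1.55 and −1.43 in WT, against −0.79, −0.55 and −0.69 in KO. The log2 fold change of Hoxc5 was 0.63 (SE 0.19, limma adjusted p = 0.31). As for Hoxc6, WT replicate 1 and KO replicate 1 were the adjoining arrays. Hoxc4 read 0.66, 0.29 and 0.49 in WT, against 0.70, 0.95 and 0.97 in KO, with a log2 fold change of 0.40 (SE 0.15, limma adjusted p = 0.39). Here too the groups were separated by the narrow step from WT replicate 1 to KO replicate 1.

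The other 4 tested Hoxc genes overlapped between groups. Hoxc8 and Hoxc9, genes of the thoracic region, had log2 fold changes of 0.01 and 0.02, with 95% intervals of −0.52 to 0.54 and −0.34 to 0.37. Hoxc10 had −0.21 with an interval of −1.03 to 0.62. The intervals of Hoxc8 and Hoxc10 include the fold change of Hoxc6, and that of Hoxc9 ends below it.

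Hoxc13, the regulator of hair keratins, read −1.09, −0.47 and −1.37 in WT, against 0.01, −0.19 and −1.31 in KO. KO replicates 1 and 2 were above every WT array, and KO replicate 3 lay with the WT arrays. The log2 fold change was 0.48 (SE 0.40, limma adjusted p = 0.61). KO replicates 1 and 2 were also the arrays with high hair shaft and hair matrix genes: the median of 13 measured genes of that list, each relative to its WT mean, was 1.93 and 1.91 there, 0.04 in KO replicate 3 and between −0.12 and 0.11 in WT. All 13 had positive fold changes and none passed the adjusted threshold. The list holds 20 genes, of which 18 had a probe and 13 passed the filter. Padi3 was well above background on 1 WT array and 3 KO arrays, so the filter favours its difference. Krt86, a hair keratin, read −2.28, −2.63 and −2.15 in WT, against 4.26, 3.22 and −1.51 in KO. With KO replicate 3 alone set against WT, the Hoxc13 difference was −0.33. The part of hair shaft RNA in the Hoxc13 result was not tested.

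The Hoxd cluster had 4 tested coding genes and 1 antisense RNA, all with positive fold changes. Hoxd8 and Hoxd9 are adjoining genes of the middle of the cluster, active in the trunk and proximal limb. Hoxd8 read 0.52, 0.35 and 0.22 in WT, against 0.72, 1.26 and 0.77 in KO, giving a log2 fold change of 0.55 (SE 0.18, limma adjusted p = 0.35). KO replicate 2 was the highest array. Hoxd9 read −0.42, −0.72 and −0.68 in WT, against −0.42, 0.17 and −0.06 in KO, giving a log2 fold change of 0.51 (SE 0.18, limma adjusted p = 0.38). WT replicate 1 and KO replicate 1 were the same to the second decimal, so these groups all but touched. Hoxd3os1, an RNA from the strand opposite to Hoxd3, read −2.30, −2.90 and −2.88 in WT, against −2.08, −1.59 and −2.02 in KO. Its log2 fold change of 0.80 (SE 0.22, limma adjusted p = 0.30) had the smallest p of all members. Hoxd4 differed by 0.35 and Hoxd10 by 0.21, both with overlapping arrays; in KO replicate 3 Hoxd4 lay within the WT range.

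**Figure D3:**
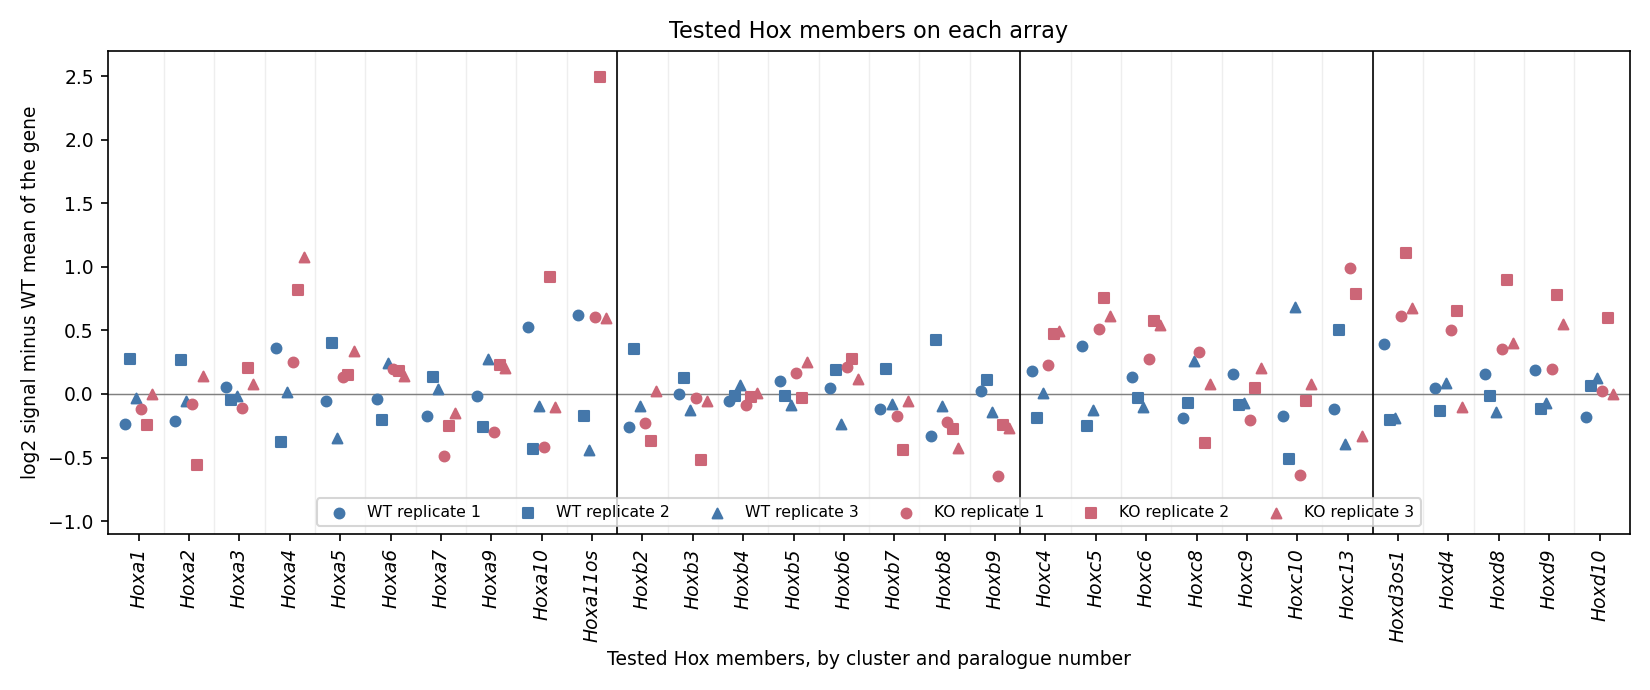
Log2 signal of the 30 tested members on each array minus the WT mean of the gene, with blue for WT, red for KO and marker shape for the replicate number. For Hoxc4, Hoxc5, Hoxc6, Hoxd3os1, Hoxd8 and Hoxd9 the blue circle, WT replicate 1, is the WT array nearest to the KO arrays, and Hoxa11os in KO replicate 2 is the point farthest from its WT mean.

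The promoters of 4 of the 7 separated members are shown to let their sequence be compared with the shared pattern. The RefSeq promoter table on GRCm38.p6 covers 250 bases before to 50 bases after a gene's start and held 26 promoters of 24 members, among them Hoxc4, Hoxd8, Hoxd9 and Hoxd3os1; Hoxb9, Hoxc5 and Hoxc6 are not shown. Each is written 5′ to 3′ on the strand of its gene, with CpG dinucleotides in capitals. Hoxc4 is at chr15:103034145-103034444 on the plus strand, Hoxd8 at chr2:74704365-74704664 on the plus strand, Hoxd9 at chr2:74697513-74697812 on the plus strand and Hoxd3os1 at chr2:74716081-74716380 on the minus strand.
Hoxc4: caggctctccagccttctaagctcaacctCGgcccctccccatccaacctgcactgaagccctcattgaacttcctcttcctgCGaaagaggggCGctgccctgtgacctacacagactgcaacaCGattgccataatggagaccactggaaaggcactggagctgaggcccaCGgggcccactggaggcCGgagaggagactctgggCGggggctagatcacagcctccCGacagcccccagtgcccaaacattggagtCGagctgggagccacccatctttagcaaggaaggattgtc
Hoxd8: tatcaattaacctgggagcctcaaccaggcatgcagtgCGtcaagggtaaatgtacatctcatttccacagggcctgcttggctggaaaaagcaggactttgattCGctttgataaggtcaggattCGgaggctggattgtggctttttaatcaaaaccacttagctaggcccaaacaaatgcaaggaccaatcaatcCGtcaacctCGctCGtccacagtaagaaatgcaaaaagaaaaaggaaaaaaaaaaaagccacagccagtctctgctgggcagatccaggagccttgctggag
Hoxd9: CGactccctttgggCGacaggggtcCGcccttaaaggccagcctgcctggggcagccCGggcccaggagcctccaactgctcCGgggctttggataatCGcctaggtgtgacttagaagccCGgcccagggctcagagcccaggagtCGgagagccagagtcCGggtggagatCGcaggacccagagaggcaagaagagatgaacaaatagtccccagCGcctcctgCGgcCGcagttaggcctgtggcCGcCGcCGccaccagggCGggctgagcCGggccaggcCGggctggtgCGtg
Hoxd3os1: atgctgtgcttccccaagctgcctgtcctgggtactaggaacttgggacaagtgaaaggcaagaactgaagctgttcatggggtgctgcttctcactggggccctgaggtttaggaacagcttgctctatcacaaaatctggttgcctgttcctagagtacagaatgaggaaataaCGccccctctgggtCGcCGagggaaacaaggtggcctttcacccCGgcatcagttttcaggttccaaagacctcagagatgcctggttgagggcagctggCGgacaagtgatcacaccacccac
The 4 held 9, 6, 20 and 5 CpGs. The median was 14.5 over the 26 Hox promoters and 7 over all 32851 promoters of the table, so 3 of the 4 lay below the Hox median and Hoxd9 above it. Searched on both strands were 2 SOX motifs, with others for homeodomain proteins and the TATA box; overlapping matches were each counted. ACAAAG was in 6 of 26 Hox promoters (23.1%) and in 18.7% of all promoters, and AACAAT in 0 and in 10.7%. The homeodomain motif TAATTA was in 2 of 26 and in 5.29% of all, the PBX-HOX motif TGATTNAT in 2 of 26 and in 3.22%, and TATAAA in 5 of 26 and in 13.6%. The promoters of Hoxc4, Hoxd8, Hoxd9 and Hoxd3os1 held none of these 5 motifs in the window.

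A pair of cluster A members had unequal values within the KO group. Hoxa11os, transcribed opposite to Hoxa11, read −3.50, −4.30 and −4.57 in WT, against −3.52, −1.63 and −3.53 in KO. It was well above background on WT replicate 1 and on all 3 KO arrays, so it entered the test through the KO group. The log2 fold change was 1.23 (SE 0.56, limma adjusted p = 0.45). Leaving out KO replicate 2 brought it to 0.60. Hoxa11, which patterns the forearm and lower leg and is also a gene of the uterus, was read from the average of 10 spots. It read −5.72, −6.18 and −6.41 in WT, against −6.94, −2.24 and −6.17 in KO, and it was well above background in KO replicate 2 alone. It was not tested. Of the genes beside it, Hoxa10 was highest in the same array: it read −0.95, −1.90 and −1.56 in WT, against −1.89, −0.55 and −1.57 in KO. Hoxa9 overlapped between groups with a log2 fold change of 0.05, and KO replicate 2 lay inside the range of the other arrays.

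The Hoxa11 and Hoxa11os promoters are shown because the pair shared the 1 high array. They lie at chr6:52245761-52246060 on the minus strand and chr6:52244993-52245292 on the plus strand, with CpGs in capitals.
Hoxa11: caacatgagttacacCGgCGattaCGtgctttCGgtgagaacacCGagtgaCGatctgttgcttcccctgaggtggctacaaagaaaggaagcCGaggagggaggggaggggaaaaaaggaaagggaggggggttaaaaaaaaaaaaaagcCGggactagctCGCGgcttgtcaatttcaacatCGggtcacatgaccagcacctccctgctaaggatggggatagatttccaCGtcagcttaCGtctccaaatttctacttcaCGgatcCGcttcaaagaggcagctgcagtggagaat
Hoxa11os: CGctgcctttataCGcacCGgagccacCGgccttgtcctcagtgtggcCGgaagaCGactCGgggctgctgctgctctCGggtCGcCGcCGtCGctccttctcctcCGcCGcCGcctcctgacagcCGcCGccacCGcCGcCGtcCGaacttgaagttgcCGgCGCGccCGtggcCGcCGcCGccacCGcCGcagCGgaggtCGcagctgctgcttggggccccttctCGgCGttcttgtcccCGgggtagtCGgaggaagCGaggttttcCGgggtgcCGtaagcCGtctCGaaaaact
Hoxa11 held 15 CpGs and Hoxa11os 41. The Hoxa11 window has 1 ACAAAG match on the strand as written, in small letters above. The Hoxa11os window has 1 TATAAA match on the strand opposite to the one written.

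Hoxc10 and Hoxc11, the Hoxc genes of the lumbar and sacral region, varied between arrays and overlapped between groups. Hoxc11 was not tested, and the interval of Hoxc10, −1.03 to 0.62, spans differences in both directions. Whether either gene varies independently of genotype was therefore not shown. Hoxc11 read −3.25, −4.98 and −3.53 in WT, against −5.82, −3.22 and −4.81 in KO, and it was well above background in WT replicates 1 and 3 and KO replicate 2. Hoxc10 read −1.57, −1.91 and −0.72 in WT, against −2.04, −1.46 and −1.32 in KO. WT replicate 2 and KO replicate 1 were the lowest 2 arrays for Hoxc10, Hoxc11 and Hoxa10. For Hoxc11 the WT arrays lay wholly inside the range of the KO arrays.

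**Figure D4:**
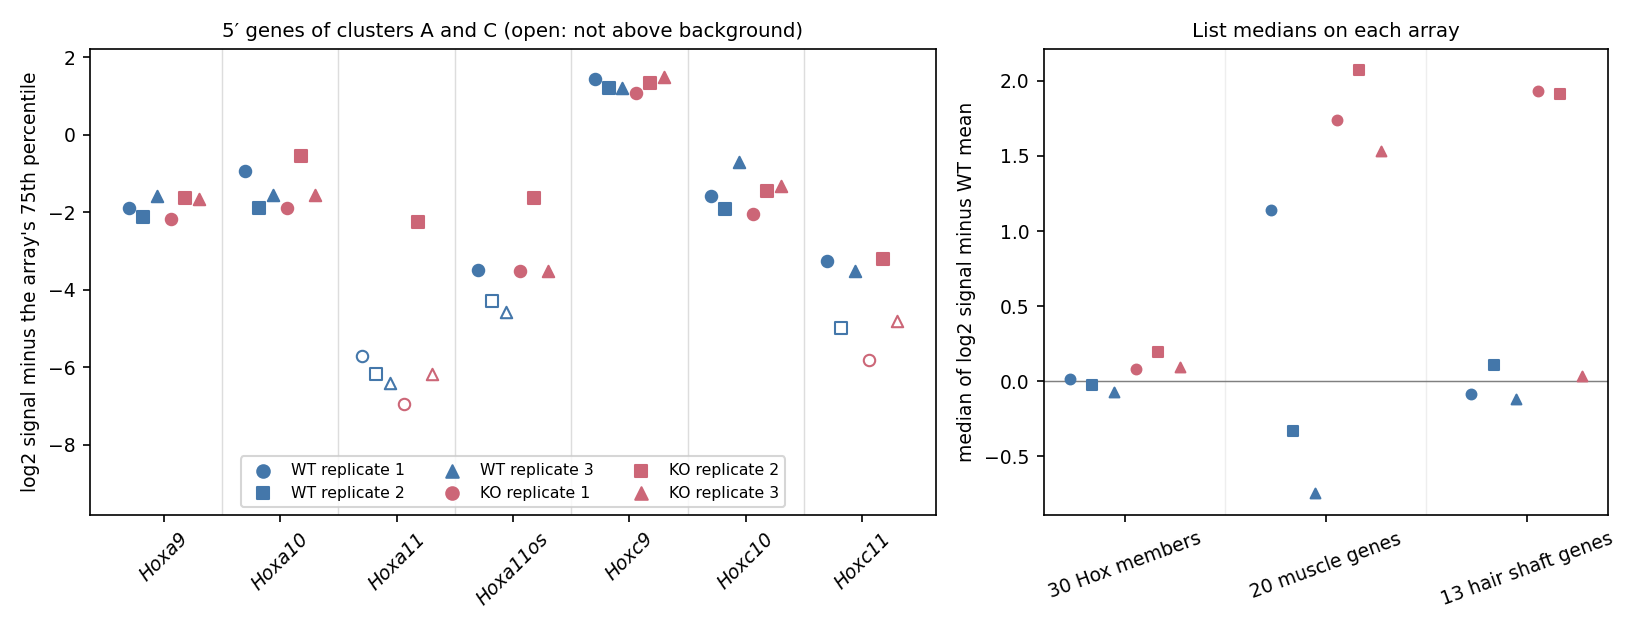
Left, log2 signal relative to the 75th percentile of the array for genes of groups 9 to 11 of clusters A and C, with filled markers for arrays on which the probe was well above background and open markers for arrays on which it was not; levels are comparable within a gene, not between genes. Right, the median over the list of log2 signal minus the WT mean of each gene, for the Hox members and for skeletal muscle and hair shaft genes. KO replicate 2 stands apart for Hoxa11 and Hoxa11os, and WT replicate 1 lies nearest to KO for the muscle genes.

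Hoxa4, a gene of the neck region, read −3.40, −4.15 and −3.75 in WT, against −3.52, −2.95 and −2.69 in KO. KO replicates 2 and 3 were above every WT array, and KO replicate 1 lay between WT replicates 1 and 3. Its log2 fold change was 0.71 (SE 0.27, limma adjusted p = 0.40). The other 8 tested coding Hoxa genes had log2 fold changes between −0.30 and 0.21. The lowest was Hoxa7, with WT values of 4.03, 4.33 and 4.24 and KO values of 3.71, 3.95 and 4.05 (SE 0.14, limma adjusted p = 0.47). Both Hoxa9 probes had positive differences, 0.05 and 0.12.

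Hoxb9, a gene of the thoracic region and mammary gland, was the member with KO below every WT array. It read −0.15, −0.06 and −0.31 in WT, against −0.82, −0.41 and −0.44 in KO, giving a log2 fold change of −0.38 (SE 0.15, limma adjusted p = 0.42). KO replicate 1 was the lowest array, and the step between the groups lay between WT replicate 3 and KO replicate 2. The other 7 Hoxb genes had log2 fold changes between −0.31 and 0.20. Hoxb4, which regulates blood stem cells, varied least of all members: its 6 arrays lay within 0.16 log2 units, and its log2 fold change was −0.04 (95% interval −0.29 to 0.22). Hoxb3 had 2 measured probes that disagreed in sign, with −0.20 for the brighter one used here and 0.39 for the other. Its direction is therefore uncertain.

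Skeletal muscle genes were higher in KO by sign, as were the 6 separated members with KO above WT, whereas Hoxb9 was lower. All 20 genes of a muscle list were measured and all had positive fold changes (median 1.74), with 17 at an unadjusted p under 0.05 and none past the adjusted threshold. Their list median relative to WT was 1.14, −0.33 and −0.75 in WT, against 1.74, 2.07 and 1.53 in KO. WT replicate 1 was the WT array nearest to KO for all 6 of the separated members that were higher in KO; over all genes higher in KO without overlap the share was 66.5%. A fit that took the muscle list median as a covariate gave log2 fold changes of 0.24 for Hoxc6, 0.09 for Hoxc5, 0.18 for Hoxc4, 0.19 for Hoxd8, 0.18 for Hoxd9 and 0.15 for Hoxd3os1, each smaller than without the covariate; limma adjusted p was 1 for each. Hoxb9 was −0.48 in the same fit, farther from 0 than without the covariate, and the median of the 30 members was 0.15 with 22 positive. This fit was chosen after seeing the data. The muscle list median did not overlap between groups and had WT replicate 1 nearest to KO, as the 6 members had. The fit therefore could not separate it from genotype for them. Over all genes the fit called 0, and Sox4 had −3.31 (limma adjusted p = 0.196). With age as a covariate in place of the muscle score, the same 6 members had larger fold changes than in the fit without it. They ran from 0.475 for Hoxc4 to 1.30 for Hoxd3os1, and Hoxb9 had −0.29. No KO mouse was older than any WT mouse, and 18 weeks was the only age in both groups. Age and genotype can therefore hardly be told apart, and the larger values are not stronger evidence. In a tissue sample a change in the share of cells of a type and a change in RNA per cell cannot be told apart.

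The differences between KO and WT also varied from slide to slide. Slide 1 held only WT replicate 1 and KO replicate 3, and KO replicate 1 was the only KO array on slide 2. Slide and mouse can therefore not be told apart. On slide 1 the median of the 30 members was 0.18 (23 positive) and on slide 2 it was 0.04 (15 positive), beside 0.02 and −0.11 for all genes. The differences on slides 1 and 2 were 0.40 and 0.34 for Hoxc6, 0.24 and 0.70 for Hoxc5, and 0.31 and 0.32 for Hoxc4. They were 0.25 and 0.43 for Hoxd8, 0.36 and 0.29 for Hoxd9, 0.28 and 0.80 for Hoxd3os1, and −0.29 and −0.63 for Hoxb9. These 7 were picked for their lack of overlap between groups, which fixes their sign on each slide. Hoxc13 was −0.22 on slide 1 and 0.93 on slide 2, and Hoxa11os was −0.03 and 0.91. KO replicate 2 shared no slide with another array.

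Partners and regulators of Hox genes were read from lists of their own. Of 9 genes for PBX, MEIS and PKNOX cofactors 8 were tested, 4 higher and 4 lower, and none was called. Pknox2 had a log2 fold change of 0.84 (SE 0.31, limma adjusted p = 0.38), with the muscle-high WT replicate 1 at −0.03 and the other WT arrays at −1.26 and −0.80. Pbx2 had −0.09. Of 29 tested Polycomb genes 23 had negative fold changes and none was called; the median was −0.09, beside −0.09 over all genes. Pcgf3 had −0.47 (limma adjusted p = 0.31), Cbx2 −0.43 (limma adjusted p = 0.35) and Rnf2 −0.49 (limma adjusted p = 0.44); they are parts of Polycomb repressive complex 1. Of 13 tested trithorax genes and H3K27 demethylases 6 were higher and 7 lower, with a median of −0.01; the demethylase Kdm6a had −0.13.

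Most tested genes that flank the clusters had negative fold changes, 8 of 10, as had 14629 of all 22823 genes and transcripts tested. Lnpk (0.28) and Cbx5 (0.12) were positive, and no Cdx or Evx gene of the list passed the filter. Skap1, a T cell adaptor gene beside the Hoxb cluster, read −0.36, −0.44 and −0.31 in WT, against −1.08, −1.20 and −1.12 in KO, giving a log2 fold change of −0.76 (SE 0.11, limma adjusted p = 0.18). Snx10, a sorting nexin gene near the Hoxa cluster, had −0.40 (SE 0.11, limma adjusted p = 0.29). Both were without overlap on these arrays, and neither was called. Of the 10 tested flanking genes 3 had KO below every WT array, beside 11.8% of all genes tested. Whether these shares differ was not tested. Pitx1, a homeodomain gene of hindlimb identity outside the clusters, read −2.39, −3.17 and −2.81 in WT, against −0.07, 0.38 and −0.01 in KO, giving a log2 fold change of 2.89 (SE 0.23, limma adjusted p = 0.0464), and was the only gene of the lists on limb identity, skin homeodomain, cofactor, Polycomb, trithorax and flanking genes that was called. Its fold change stayed positive in 18 alternative fits (2.13 to 3.29), but it was called in 8 of them. The call was lost with the replicate block (limma adjusted p = 0.438), slide as a fixed block (0.165) and the muscle score (0.914), and in 4 fits that left out 1 array each: WT replicate 2 (0.158) or 3 (0.175), KO replicate 1 (0.194) or 2 (0.163). The 28 tested coding Hox genes spanned −0.38 to 0.71.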

How the data were processed

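RNA of skin from 6 mice, 3 WT and 3 KO, was measured on 1-colour arrays; groups, replicates and ages came from the labels, and each file's sample from the record of deposited files. Spot intensity values were deposited as scanner output of Feature Extraction 11.5.1.1, per the file headers, background-subtracted and detrended, without normalization between arrays. Columns of other values, deposited with each spot, are 0 or 1 flags for signal well above background, saturation and outliers, per the file headers. The authors also deposited a log2 value table, whose group headings are swapped against the arrays: every column correlated at 0.997 to 0.999 with the array of the other genotype and the same number, and at −0.579 to −0.177 with its own. It was not used for comparisons. The submitters' processing notes name limma without settings.

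Log2 signals of a probe's spots were averaged without outlier-flagged spots, and each array's 75th percentile was subtracted. Of 55681 probes 31 were left out for lack of an unflagged spot, none of them Hox, and 0 spots were saturated. Accessions were named through a RefSeq table; the array grid is mm9, so no coordinates of probes are given. The filter kept 30082 probes that were well above background on every array of 1 or both groups, with the brightest kept probe per gene. This gave 22823 genes and transcripts. KO was set against WT in R 4.3.3 with limma 3.58.1 (lmFit, eBayes, two-sided, no covariate, Benjamini-Hochberg over all genes, threshold 0.05). The fit was tested on simulated data.

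Values on each array are given for members without overlap, with an unadjusted p under 0.05, or with a range above 2 log2 units and detection on at least 3 arrays, and for Hoxc13; Sox4 and Pitx1 were added, as were the 2 to 4 genes with the smallest p in each other list, apart from a few genes that are not reported here. Hoxa10, Hoxc10, Hoxa7, Hoxa11 and Hoxb4 were singled out after their values were seen. The members and lists were chosen with earlier results of these data known. List scores are per-array medians of log2 signal minus each gene's WT mean. Alternatives changed the scaling, the background correction (normexp, offset 50, on median spot and background signals, as the planned mean signal is not in the files, then quantile normalization), the filter, the probe rule, slide, age, replicate number and the arrays included. Replicates are different animals by age, and 3 arrays per group limit the precision. KO and WT arrays of the same number did not deviate together (correlations −0.13, −0.04 and 0.08), so the main fit did not pair them. With 3 arrays per group these correlations cannot exclude a pairing.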

Additional observations from a re-analysis of the deposited data

Results flagged for a closer look

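There were 3 Hox probes outside the test that were well above background on KO arrays and on no WT array. Hoxa11 reached −2.24 relative to the 75th percentile in KO replicate 2, beside −5.72 in the highest WT array. Hoxa13 was above background in KO replicates 1 and 3 and reached −3.76 in KO replicate 3, beside −4.49 in the highest WT array. In KO replicate 1 it read −5.27, below the −4.65 and −4.49 of WT replicates 2 and 3, which did not carry the mark. Its second probe was not above background on any array. Hoxc12 was above background in KO replicate 1, where it read −4.67, and its highest value of −3.99 in KO replicate 3 lay close to that of the highest WT array, −4.17. KO replicate 1 had the highest share of probes above background of the 6 arrays, 66.4%. The mean of KO minus WT was 0.98 for Hoxa11 but −0.25 for this Hoxa13 probe and −0.16 for Hoxc12. None of the 3 was tested between groups, and the share of all probes with the same pattern of marks was not counted.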

How the results depend on the processing

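No Hox member was called in any of the 19 alternative fits with a test, and the smallest adjusted p of a named Hox gene was 0.0676, for Hoxc5 without WT replicate 1. Of the 10 members named by rule, the sign turned for Hoxa11os with the muscle score as a covariate (−0.14). It turned for Hoxc13 with KO replicate 3 alone against WT (−0.33). On slide 1 alone both were below 0, at −0.03 for Hoxa11os and −0.22 for Hoxc13. Over all 30 tested members and 18 fits compared by gene, the sign held throughout for 14 and turned in 1 or more fits for 16. Among the 16 were Hoxd4 (lowest −0.105, from 0.35), Hoxa10 (−0.79, from 0.14) and Hoxc10 (highest 0.25, from −0.21). The 14 include the members picked for lack of overlap between groups. Their sign could not turn with 1 array left out, with KO replicate 3 alone or with the replicate block. The slides taken alone were not among the 18 fits. On slide 1 Hoxa7 and Hoxb7, both of the 14, turned to 0.02 and 0.06. The Hox median of 0.13 was 0.0467 without the filter on dim probes, 0.0409 on slide 2, and 0.0332 (without WT replicate 2) to 0.18 with 1 array left out. The count over all genes was 5. It was 15 with median centring, 2 with the 75th percentile of detected probes, 8 with normexp and quantile normalization, 2 without the filter, 9 with probes above background on all 6 arrays and 3 with every kept probe tested. It was 1 with slide as a fixed block, which leaves KO replicate 2 without a partner, 15 with slide as a random block, 0 with the replicate number as a block, 141 with age as a covariate, 0 with KO replicate 3 alone, 0 with the muscle score, and 2 to 255 with 1 array left out (255 without WT replicate 1). Sox4 kept its sign but missed the threshold for its second probe with every probe tested (−4.89, adjusted p = 0.053; this probe was above background on 0 KO arrays, so the value is no measured fold, and the probe used here had −3.56 with adjusted p = 0.00169), with the replicate block (−3.56, adjusted p = 0.103), with KO replicate 3 alone (−3.66, adjusted p = 0.145) and with the muscle score (−3.31, adjusted p = 0.196). The causes were not tested. Low signal limits the 11 untested genes.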

Other observations

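Homeodomain genes outside the clusters showed more than 1 pattern over the arrays. Isl1 read −2.29, −4.45 and −4.42 in WT, against −2.54, −1.68 and −1.99 in KO. It was well above background on 1 WT array and on all 3 KO arrays, so it entered the test through the KO group. WT replicate 1 lay among the KO arrays, and the gene did not pass the adjusted threshold. Dlx2, a gene of epithelial appendages, read −4.21, −3.18 and −4.34 in WT, against −2.28, −2.30 and −3.56 in KO, with KO replicate 3 inside the WT range, as for Hoxc13. Satb1, a chromatin organiser of the epidermis, read 1.42, 1.43 and 1.44 in WT, against 1.60, 2.03 and 1.72 in KO, without overlap (log2 fold change 0.35, SE 0.14, limma adjusted p = 0.42). Of the 22 tested skin homeodomain genes 1 had KO above every WT array, beside 7.56% of all genes tested.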
